A study of Homo sapiens with 6 samples.

Results

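The HOX genes and the long noncoding RNAs (lncRNAs) of the HOX clusters were described in SH-SY5Y cells with and without knockdown of PSF, a nuclear RNA-binding protein encoded by SFPQ. Members were all rows of the gene table with the symbol of a HOX gene or HOX antisense RNA, or with the name HOTAIR or HOTTIP. This gave 18 of the 21301 genes, of which 15 are protein-coding and 3 are lncRNA genes. By cluster, 1 member lies in HOXB on chromosome 17, 8 lie in HOXC on chromosome 12 and 9 lie in HOXD on chromosome 2. RefSeq names 56 genes that fit this choice. The other genes, with the 18 of HOXA among them, were not analysed here, since the table holds genes with at least 1 read in every library.

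SH-SY5Y is a human neuroblastoma line with an adrenergic neuronal character. The cells were treated for 72 h with siControl or with 10 nM siPSF, which was a single siRNA against PSF, and poly(A) RNA was sequenced from 3 libraries per group. Both groups were the same line in the same medium, and no other allele or agent is named. Because whole cultures were sequenced, fewer cells of a type and less RNA per cell cannot be told apart.

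HOX genes encode homeodomain transcription factors that give cells their place along the head-to-tail axis of the embryo. Humans carry them in 4 clusters, and genes at the same place in different clusters form paralog groups that are numbered from the end active in the head to the end active in the tail. In the nervous system, HOX proteins set the identity of hindbrain segments and of spinal motor neurons, and retinoic acid, Polycomb and Trithorax proteins control where the clusters are active. The lncRNAs are transcribed from between the HOX genes, mostly from the opposite strand. HOTAIR, from HOXC, is known for its link to the Polycomb repressive complex and to the HOXD cluster.

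The libraries held between 101540520 and 132420931 counts. SFPQ was at 377 ± 23.1 CPM (counts scaled to the library size after TMM normalization; SD, n = 3) in siControl and at 189 ± 22.3 CPM (SD, n = 3) in siPSF, a log2 ratio of siPSF to siControl (log2FC) of -0.99 (adjusted p = 9.5e-05, quasi-likelihood test of edgeR). Of 12 markers of adrenergic neuroblastoma cells, 11 were at 1 FPKM (fragments per kilobase of exon, scaled to the mapped reads) or more, and the summed level of the list was 2195 to 2417 FPKM in siControl and 1934 to 2338 FPKM in siPSF. TH, the enzyme gene of the first step of catecholamine synthesis, was the exception at 0.220 FPKM in siControl and 0.0678 FPKM in siPSF. Of these 12, DBH was called lower in every fit that left out a library. GATA3 was called higher with all libraries but in 0 of the 6 fits that left out a library (adjusted p up to 0.099, edgeR), and TH was called lower but not without siControl replicate 2 or siControl replicate 3. The mesenchymal markers, with 9 of 12 in the table, summed to 48.7 to 53.0 FPKM in siControl and 35.3 to 62.0 FPKM in siPSF, and PRRX1 was not among them. FN1 and NOTCH2 were called lower, NOTCH2 not without siControl replicate 1 or siControl replicate 3. The fibroblast markers, all 9 in the table and led by TWIST1, summed to 148 to 163 FPKM and 126 to 144 FPKM, with PDGFRA and COL3A1 called lower. The call of COL3A1 held only without siControl replicate 1 or siPSF replicate 3 among the fits that left out a library. The 3 Schwann cell markers found of 6 stayed at or under 1.42 FPKM in sum and the 2 immune markers of 6 at or under 2.56 FPKM, and edgeR called 0 in either list, with 0 at an unadjusted p under 0.05. The 4 epithelial markers of 6 summed to 1.31 to 1.72 FPKM in siControl and 1.97 to 3.20 FPKM in siPSF, and EPCAM was called higher, though not without siControl replicate 3. The part of these cell type markers in the HOX values was not tested.

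RefSeq (GRCh38.p14) gave sequence upstream of a start for 10 of the 18 members, as 250 bases that end at the base before that start. For HOXD13 and HOXD3 the window lies inside the RefSeq span of the gene, not before its first base. HOTAIR and HOXC8 were among the 8 without an entry. Of the 10, windows are shown for the most abundant members and for the member with the lowest fold change. HOXC4 and HOXC5 have the same window, at chr12:54016638-54016887 on the plus strand, because RefSeq starts both genes at the same base. HOXD-AS2, the most abundant member, has the window chr2:176137099-176137348 on the minus strand. HOXD13, with the lowest fold change, has the window chr2:176092471-176092720 on the plus strand, within its RefSeq span of chr2:176087487-176095944. Capitals mark CCAAT and TATAAA on either strand; in HOXD13 a match of TATAAA on each strand overlaps the other.
HOXC4 and HOXC5: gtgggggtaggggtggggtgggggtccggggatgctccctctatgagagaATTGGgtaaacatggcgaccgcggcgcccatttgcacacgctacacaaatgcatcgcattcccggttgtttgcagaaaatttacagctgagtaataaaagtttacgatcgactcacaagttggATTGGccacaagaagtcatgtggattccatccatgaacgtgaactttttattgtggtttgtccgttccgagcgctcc
HOXD-AS2: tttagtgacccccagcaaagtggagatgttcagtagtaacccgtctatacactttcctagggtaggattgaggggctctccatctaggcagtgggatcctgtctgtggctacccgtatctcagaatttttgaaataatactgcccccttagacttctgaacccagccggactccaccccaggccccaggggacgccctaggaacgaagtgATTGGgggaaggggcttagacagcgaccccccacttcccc
HOXD13: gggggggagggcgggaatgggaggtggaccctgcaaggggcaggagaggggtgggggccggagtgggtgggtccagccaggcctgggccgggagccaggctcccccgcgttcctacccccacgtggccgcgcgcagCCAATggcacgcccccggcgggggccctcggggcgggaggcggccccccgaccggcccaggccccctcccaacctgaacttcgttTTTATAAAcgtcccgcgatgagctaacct

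CCAAT was present on one strand or the other in 8 of these 10 windows, where HOXC4 and HOXC5 count the same window, and in 32.0% of the 35116 RefSeq windows of this length. TATAAA was present only in HOXD13 among the 10, and in 10.7% of all windows. CpG pairs numbered from 4 in HOXD4 to 31 in HOXD1, and 8 of the 10 windows lay above the median of 11 CpG pairs over all windows. HOXD-AS2, with 6 CpG pairs, and HOXD4 were the exceptions. These matches describe the letters of the windows.

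The members fell into a set that was clearly expressed and a set close to the limit of detection. On the FPKM scale, which accounts for exon length, 9 members had a mean of at least 1 over the 6 libraries, and each of these was also above 2. The other 9 were under 1. The order in siControl was led by HOXD-AS2, an antisense lncRNA of the HOXD cluster, at 20.5, 17.8 and 15.3 FPKM. Below it came HOXC4, with 10.6, 10.4 and 9.67 FPKM, and HOXC5, with 10.7, 8.97 and 8.23 FPKM. HOXD3 followed at 9.51, 7.49 and 8.13 FPKM, and HOXD9 at 7.84, 7.59 and 6.65 FPKM. From HOXC4 to HOXD9, each range overlapped that of its neighbour in this order, so that the order of these genes was not separated by the spread. HOXD9 lay above the next gene, HOXC6, in every siControl library, and so did HOXD-AS2 above HOXC4.

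**Figure D1:**
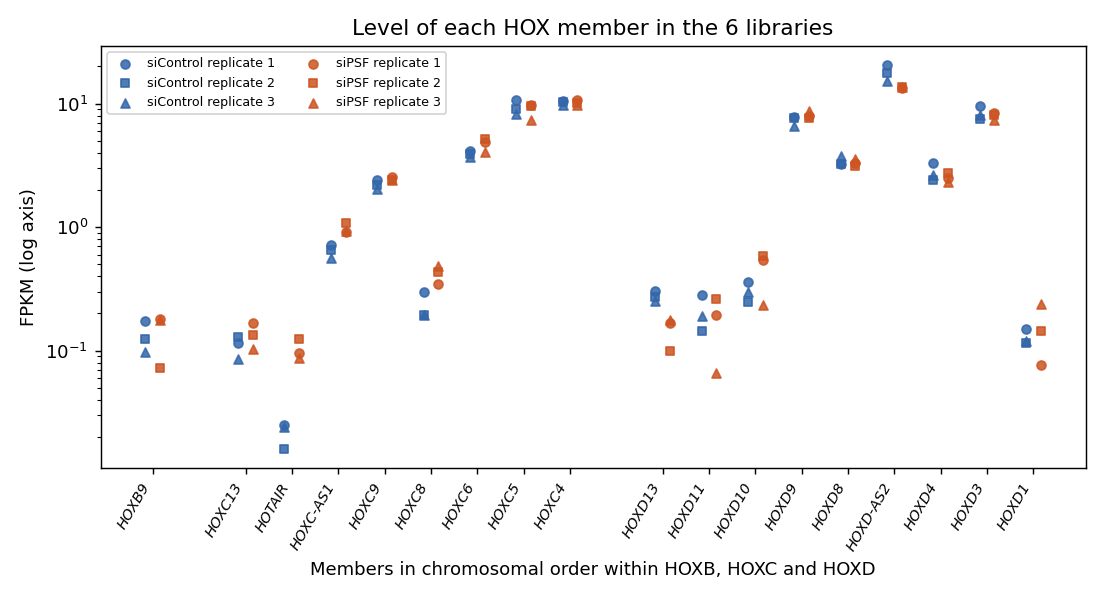
FPKM (log axis) of each member in the 6 libraries, with the members in chromosomal order within HOXB, HOXC and HOXD; blue symbols are siControl and orange symbols siPSF, and the shape gives the replicate. HOXC4, HOXC5, HOXC6 and HOXC9 and the HOXD genes from HOXD9 to HOXD3 lie above 2 FPKM, whereas HOXD1 and the HOXD10 to HOXD13 end lie below 1.

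A second tier ran from HOXC6, at 4.17, 3.90 and 3.66 FPKM in siControl, through HOXD8 and HOXD4 to HOXC9, at 2.43, 2.20 and 2.02 FPKM. Its ranges again overlapped from one gene to the next. Below a gap lay HOXC-AS1, an antisense lncRNA next to HOXC9, at 0.717, 0.657 and 0.563 FPKM. HOXD10, HOXD13, HOXC8, HOXD11, HOXB9, HOXD1 and HOXC13 followed between 0.0849 and 0.359 FPKM, with overlapping ranges at every step. HOTAIR was the lowest member, at 0.0249, 0.0161 and 0.0240 FPKM, below every other member in siControl. In all, 12 of the 17 neighbouring pairs in this order had overlapping siControl ranges.

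Within HOXC, the summed level of the 8 members was 29.0, 26.5 and 24.5 FPKM in siControl and 29.4, 29.1 and 25.2 FPKM in siPSF. The 9 HOXD members summed to 45.5, 39.3 and 37.4 FPKM in siControl and 36.4, 36.5 and 36.3 FPKM in siPSF. On this scale, FPKM as deposited without TMM normalization, the HOXD sums did not overlap between groups and the HOXC sums did. The HOXD gap was narrow, from 37.4 FPKM in siControl to 36.5 FPKM in siPSF. Whether it holds on another scale was not tested. Most of the HOXD difference lay in HOXD-AS2: over the protein-coding members alone, HOXC made up 51.9% to 54.4% of the FPKM in siControl and 51.4% to 55.0% in siPSF, and these ranges overlapped. HOXB was represented by HOXB9 alone, at 0.132 ± 0.0383 FPKM (SD, n = 3) in siControl and 0.143 ± 0.0619 FPKM (SD, n = 3) in siPSF.

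By paralog group, the most abundant was group 4, with 12.3 to 13.9 FPKM in siControl and a mean of 12.7 ± 0.655 FPKM (SD, n = 3) in siPSF, most of it from HOXC4. HOXC4 was 3.20 to 4.31 times as abundant as its paralog HOXD4 over the 6 libraries, on the FPKM scale. Group 9 summed to 9.71 ± 0.856 and 10.7 ± 0.605 FPKM (SD, n = 3 each). In that group HOXD9 was the highest paralog, HOXC9 stood at 0.277 to 0.322 of it in all 6 libraries, and HOXB9 was the lowest, with HOXD9 45.1 to 67.6 times higher in siControl and up to 106.5 times in siPSF. Group 5 (HOXC5) was at 9.30 ± 1.26 and 8.88 ± 1.26 FPKM, and group 3 (HOXD3) at 8.38 ± 1.03 and 7.98 ± 0.549 FPKM (SD, n = 3 each).

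Groups 1, 10, 11 and 13, toward both ends of the clusters, were each under 1 FPKM in every library. In group 8, the ratio of HOXC8 to HOXD8 was 0.0513 to 0.0912 in siControl and 0.106 to 0.138 in siPSF, with no overlap. In group 13 the ratio of HOXD13 to HOXC13 was 2.09 to 2.97 in siControl and 0.737 to 1.72 in siPSF, also with no overlap. HOXC13 had 27 to 53 reads per library and HOXD13 34 to 101, and edgeR called neither gene. The ratios of groups 8 and 13 cancel any scaling of a library. They come from a larger set of ratios, and they were not tested.

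Across the 19694 genes that passed the filter on low counts, all 18 members among them, edgeR called 2 members higher and 0 lower after siPSF. At this threshold (an adjusted p under 0.05), 6.65% of all genes tested were called higher and 8.27% lower, and 14.9% in either direction. The members' 2 of 18 in either direction was thus close to the background. At an unadjusted p under 0.05, 4 members were higher and 2 were lower, 6 of 18 beside 29.8% of all genes tested (14.4% higher and 15.4% lower), which is again close to the background. DESeq2's Wald test likewise called 2 higher and 0 lower. With limma on log2(FPKM + 0.5), 2 were called higher, HOXC8 and HOXC-AS1, and 1 lower, HOXD-AS2. HOTAIR was not fitted by limma, so these are not the same 2 genes. Both genes called by edgeR, HOTAIR and HOXC8, lie in HOXC and are under 1 FPKM.

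HOTAIR had the highest fold change of the members. It was at 0.0658, 0.0450 and 0.0635 CPM in the siControl libraries and at 0.261, 0.341 and 0.243 CPM in the siPSF libraries. Every siPSF library lay above every siControl library. The log2FC was 2.26 (SE 0.38), and the adjusted p from edgeR was 0.0024. Here and below, SE is an approximate standard error, derived from the log2FC and the F statistic of the edgeR test.

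HOTAIR passed the filter on low counts only through the siPSF libraries: 0 of 3 siControl libraries and 3 of 3 siPSF libraries reached its limit, which is 10 reads at the median library size. A gene so selected had to differ between groups, so its call is no support for the count of members. Without the filter, the adjusted p from edgeR was 0.0029. The other 17 members reached the limit in all 6 libraries.

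These HOTAIR levels rest on few reads, 8, 6 and 8 in siControl and 31, 36 and 24 in siPSF. From the summed reads, 22 against 91, the ratio was 4.88, with an exact 95% interval of 3.04 to 8.17 that covers counting error only. The call held in each of the 6 fits that left out 1 library, with log2FCs of 2.10 to 2.36 and adjusted p-values up to 0.019 (edgeR). HOTAIR (gene ID 100124700) lies at chr12:53962312-53974954 on the minus strand, and its first part lies opposite HOXC11, which was not analysed here. The submitters' labels name a stranded kit and the paper's methods do not, and neither says whether strand was used in counting, so reads of the 2 strands cannot be told apart. In siPSF, HOTAIR was at 0.102 ± 0.0193 FPKM (SD, n = 3), the lowest mean of the members there too.

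HOXC8, a gene of the thoracic region that shapes brachial motor neurons, was at 0.781, 0.517 and 0.492 CPM in siControl. In siPSF it was at 0.943, 1.20 and 1.33 CPM, so the groups did not overlap, although the highest siControl library came close to the lowest siPSF library. The log2FC was 0.95 (SE 0.25; edgeR, adjusted p = 0.025). The call of HOXC8 was lost without siControl replicate 2, siControl replicate 3 or siPSF replicate 2, with adjusted p-values of 0.11, 0.10 and 0.056 (edgeR), and with the replicate number as a block (adjusted p = 0.055). HOXC8 (gene ID 3224) lies at chr12:54008985-54012769, between HOXC9 and the HOXC6, HOXC5 and HOXC4 genes.

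**Figure D2:**
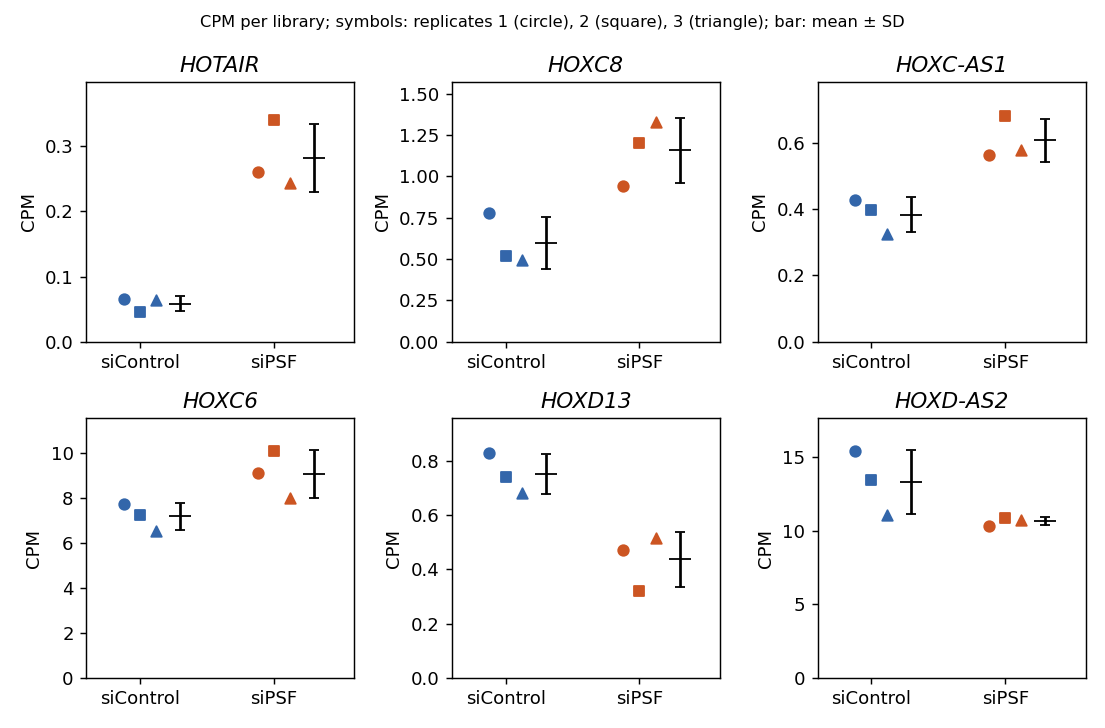
CPM per library of the 6 members with an unadjusted p under 0.05, on linear axes from 0; symbols are single libraries and the bars give the mean and SD of 3 libraries. HOTAIR and HOXC8 passed the adjusted threshold, HOXC-AS1, HOXC6, HOXD13 and HOXD-AS2 did not, and in all 6 panels the groups do not overlap.

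Of the other HOXC members, 3 also lay higher in every siPSF library without passing the adjusted threshold. HOXC6, a gene of limb-level and thoracic identity, was at 7.75, 7.26 and 6.53 CPM in siControl and 9.13, 10.1 and 7.98 CPM in siPSF. Its log2FC was 0.34 (SE 0.13; edgeR, adjusted p = 0.10), and it was called without siPSF replicate 3 (adjusted p = 0.034). HOXC-AS1 was at 0.428, 0.397 and 0.326 CPM in siControl and 0.564, 0.682 and 0.578 CPM in siPSF, from 41 to 72 reads per library.

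HOXC-AS1 had a log2FC of 0.66 (SE 0.26; edgeR, adjusted p = 0.10), and it was called with limma on log2(FPKM + 0.5) (adjusted p = 0.040). Its neighbour HOXC9, which marks thoracic identity, was at 3.89, 3.55 and 3.11 CPM and at 4.21, 4.08 and 4.08 CPM. The siPSF libraries of HOXC9 were close to each other and just above the highest siControl library. Its log2FC was 0.23 (SE 0.14; edgeR, adjusted p = 0.31).

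HOXC4 and HOXC5 had values near 0. HOXC4, the most abundant protein-coding member, was at 19.8, 19.4 and 17.3 CPM in siControl and 21.0, 20.1 and 19.0 CPM in siPSF. The groups overlapped, and the log2FC was 0.09 (SE 0.10; edgeR, adjusted p = 0.60). HOXC5 had a log2FC of 0.01 (SE 0.14), and the ratio of its FPKM to that of HOXC4 was 0.768 to 1.01 over the libraries. RefSeq starts HOXC4, HOXC5 and HOXC6 at the same base, and HOXC4 and HOXC6 share 484 exonic bases on the same strand in GENCODE, so their counts are uncertain. HOXC13, at the tail end, was at 0.285 ± 0.0636 and 0.363 ± 0.0811 CPM (SD, n = 3 each; log2FC 0.35, SE 0.32).

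All 8 HOXC members had a fitted log2FC above 0, from 0.01 in HOXC5 to 2.26 in HOTAIR, and 5 of the 8 did not overlap between groups. HOTAIR, which passed the filter on low counts only through siPSF, is in both counts and adds no support to them. Among all genes tested, 51.6% were above 0, 34.4% did not overlap in either direction and 16.7% were higher without overlap. The median over HOXC, with HOTAIR included, was 0.34, beside 0.01 over all genes. HOXC4 and HOXC5 were below 0 with limma on FPKM, so the shared sign depended on the values used. The HOXC members share a locus and, in part, exons and are not replicates of each other.

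**Figure D3:**
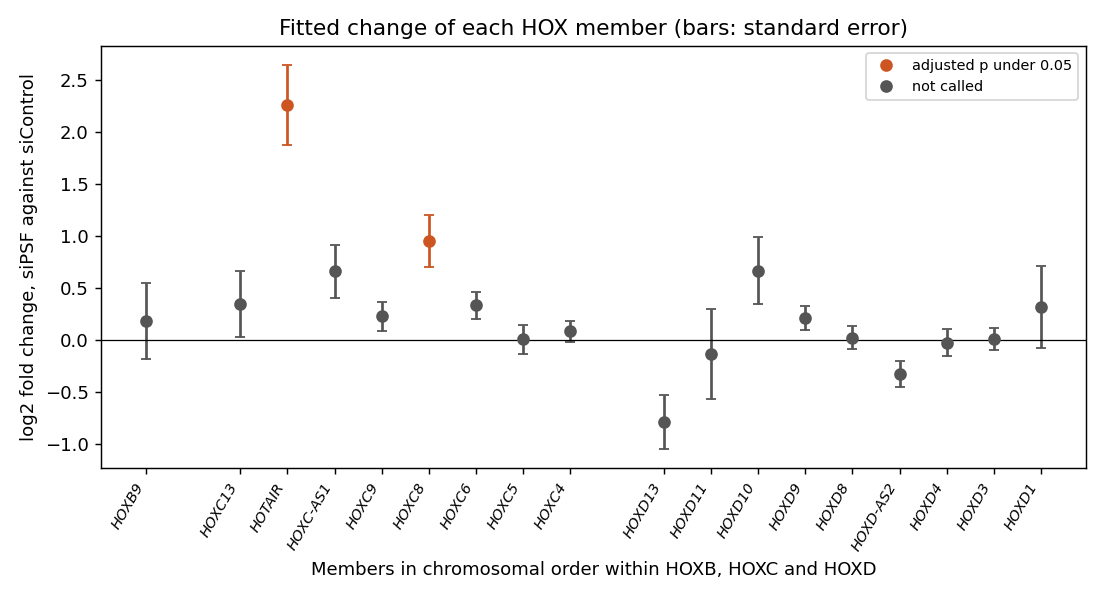
Fitted log2FC of each member, siPSF against siControl, with members in chromosomal order and bars that show the standard error; orange marks an adjusted p under 0.05. All HOXC points lie above 0, whereas HOXD runs from -0.78 in HOXD13 to 0.67 in HOXD10.

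In HOXD, 0 of 9 members were called by edgeR, 2 had an unadjusted p under 0.05, and DESeq2's Wald test also called 0. The fold changes were above 0 in 5 members and below 0 in 4, with a median of 0.02. HOXD13, the gene of the tail end of HOXD and a regulator of digit formation, had the lowest value. It was at 0.830, 0.742 and 0.683 CPM in siControl and 0.471, 0.322 and 0.517 CPM in siPSF, with every siPSF library below every siControl library. The log2FC was -0.78 (SE 0.26; edgeR, adjusted p = 0.062). HOXD13 was called lower without siPSF replicate 3 (edgeR, adjusted p = 0.042), and limma gave it an adjusted p of 0.032 on rescaled FPKM. On that scale the median of all genes was -0.14.

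HOXD-AS2 was at 15.4, 13.5 and 11.1 CPM in siControl and 10.3, 10.8 and 10.7 CPM in siPSF. The siControl libraries were spread widely, and the lowest of them was just above the siPSF libraries. Its log2FC was -0.32 (SE 0.13; edgeR, adjusted p = 0.11). Without siControl replicate 3 the adjusted p was 0.041, with limma on log2(FPKM + 0.5) it was 0.036, and with rescaled FPKM it was 0.0090. The median of all genes in these limma fits was -0.051 and -0.14.

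HOXD-AS2 shares 642 exonic bases with HOXD8 on the opposite strand in GENCODE, and 379 with HOXD3. The RefSeq spans of these genes do not overlap. The paper's methods count over RefSeq, so whether the shared bases affect the counts is not known. HOXD8 itself had means of 9.50 ± 0.623 CPM without and 9.68 ± 0.505 CPM with siPSF (SD, n = 3 each), at a log2FC of 0.03 (SE 0.11). The FPKM ratio of HOXD-AS2 to HOXD8 was 4.06 to 6.29 in siControl and 3.83 to 4.36 in siPSF, with an overlap.

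HOXD10, a gene of lumbar motor neurons, had a split siPSF group. It was at 0.699, 0.487 and 0.556 CPM in siControl and 1.09, 1.18 and 0.487 CPM in siPSF, where replicate 3 was level with the lowest control and the other libraries above them. The log2FC was 0.67 (SE 0.32; edgeR, adjusted p = 0.18), and without siPSF replicate 3 it was 0.97 (adjusted p = 0.014). Its neighbour HOXD11 shares 452 exonic bases with it on the same strand in GENCODE, while their RefSeq spans do not overlap. HOXD11 was also lowest in siPSF replicate 3, with 0.379, 0.521 and 0.132 CPM after siPSF and 0.379 ± 0.132 CPM (SD, n = 3) in siControl. Its log2FC was -0.13 (SE 0.43).

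HOXD9 was at 15.9, 15.5 and 13.01 CPM in siControl and 16.6, 16.4 and 18.7 CPM in siPSF. The groups did not overlap, and the log2FC was 0.22 (SE 0.11; edgeR, adjusted p = 0.22). HOXD3 and HOXD4, which are genes of the hindbrain and neck region, showed log2FCs of 0.02 (SE 0.11) and -0.02 (SE 0.13). Both were highest in siControl replicate 1, at 26.7 CPM for HOXD3 and 15.2 CPM for HOXD4, and their RefSeq spans overlap. HOXD1 was at 0.168, 0.313 and 0.517 CPM in siPSF, a wider spread than 0.264 ± 0.0424 CPM (SD, n = 3) in siControl, and had a log2FC of 0.32 (SE 0.39). HOXB9 in HOXB was at 0.372 ± 0.113 and 0.422 ± 0.177 CPM (SD, n = 3 each), at a log2FC of 0.19 (SE 0.37).

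The precision followed the level. Among the 9 members of at least 1 FPKM, the log2FCs lay between -0.32 and 0.34, the standard errors between 0.10 and 0.14, and 0 were called by edgeR, with 2 at an unadjusted p under 0.05, HOXC6 and HOXD-AS2. Among the 9 members under 1 FPKM, the fold changes lay between -0.78 and 2.26 and the standard errors between 0.25 and 0.43. Of all 18 members, 6 were higher and 2 lower without overlap, beside 16.7% and 17.8% of all genes tested. The 6 include HOTAIR, which passed the filter on low counts only through siPSF and adds no support to this count. The median over the members, with HOTAIR included, was 0.20.

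**Figure D4:**
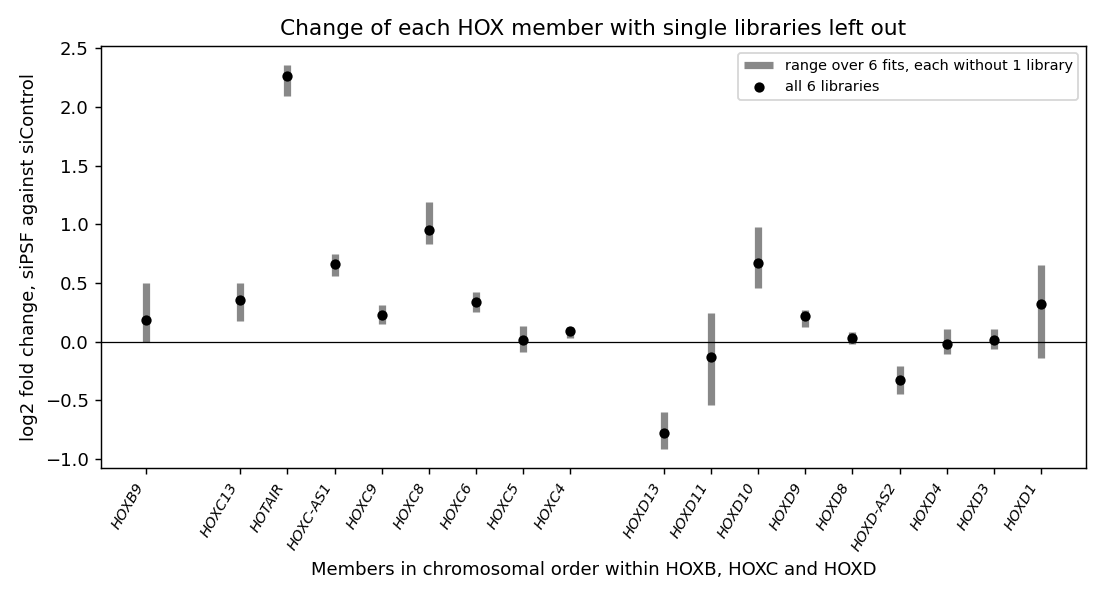
Log2 fold change of each member with all 6 libraries (black points) and its range over the 6 fits that each left out 1 library (grey bars). HOTAIR stayed between 2.10 and 2.36, while the bars of HOXB9, HOXC5, HOXD11, HOXD8, HOXD4, HOXD3 and HOXD1 reach across 0.

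Some genes inside the HOXD cluster carry no HOX name. The lncRNA gene LOC100129455 (gene ID 100129455; chr2:176127825-176130528), which overlaps the start of HOXD8, was at 2.89, 2.52 and 2.87 CPM in siControl and 5.04, 5.00 and 3.56 CPM in siPSF. It rose by a log2FC of 0.72 (SE 0.17; edgeR, adjusted p = 0.013). The call was lost without siControl replicate 2 (adjusted p = 0.077), siControl replicate 3 (adjusted p = 0.050) or siPSF replicate 1 (adjusted p = 0.057). HAGLR, an antisense lncRNA between HOXD3 and HOXD1, was at 5.93, 4.49 and 4.07 CPM in siControl and 5.77, 5.89 and 5.87 CPM in siPSF, with an overlap and a log2FC of 0.28 (SE 0.15; edgeR, adjusted p = 0.25). HAGLR shares 138 exonic bases with HOXD3 and 145 with HOXD1 on the opposite strand in GENCODE. Its RefSeq span overlaps that of HOXD1 but not that of HOXD3.

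The partners and regulators of HOX proteins were taken from fixed lists, chosen with earlier results of these data known. HOX proteins bind DNA together with TALE homeodomain cofactors, such as those of the MEIS family. MEIS2, the most abundant cofactor on the FPKM scale, was at 37.5 ± 6.92 and 33.4 ± 0.842 FPKM (SD, n = 3 each), at a log2FC of -0.06.

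Polycomb proteins keep HOX genes silent. For the lists that follow, the shares over all genes tested were 8.27% called lower and 6.65% called higher, and 15.4% lower and 14.4% higher at an unadjusted p under 0.05. Of the 33 Polycomb genes, 2 were called lower and 0 higher by edgeR, with 3 lower and 1 higher at an unadjusted p under 0.05 and a median of 0.02. PHF19, an accessory subunit of the Polycomb repressive complex, fell by 0.52 on the log2 scale (edgeR, adjusted p = 0.0034), and SCMH1 by 0.30 (edgeR, adjusted p = 0.031). The call of SCMH1 held only without siControl replicate 3 or siPSF replicate 2 among the 6 fits that left out a library. Trithorax and MLL proteins keep HOX genes active. Of these 19 genes, 4 were called lower and 0 higher by edgeR, with 6 lower and 0 higher at an unadjusted p under 0.05 and a median of -0.10.

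KMT2A, the MLL histone methyltransferase that maintains HOX expression, had a mean of 239 CPM without and 168 CPM with siPSF, and fell by 0.51 on the log2 scale (edgeR, adjusted p = 0.0039). KMT2D had a log2FC of -0.50 (edgeR, adjusted p = 0.0054) and KMT2C of -0.51 (edgeR, adjusted p = 0.0083). ASH1L was the fourth gene called in that list, at -0.50 (edgeR, adjusted p = 0.012), and its call was lost without siControl replicate 3 or siPSF replicate 1.

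Retinoic acid switches HOX genes on from the head end of the cluster. Of the 14 genes tested for its receptors and handling, 3 were called lower and 1 higher, with a median of -0.17. STRA6, a vitamin A transporter gene, fell by 0.86 on the log2 scale (edgeR, adjusted p = 0.0010). CRABP2, a retinoic acid carrier, fell by 0.85 (edgeR, adjusted p = 0.0018), and the receptor RARB by 1.21 (edgeR, adjusted p = 0.0077). RXRA was called higher at 0.44 (edgeR, adjusted p = 0.025). That call held only without siControl replicate 1 or siPSF replicate 3 among the 6 fits that left out a library.

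Of the 19 genes tested that flank the clusters, 2 were called lower and 2 higher, with a median of 0.01. JAZF1 fell by 0.72 on the log2 scale (edgeR, adjusted p = 0.0062), CIR1 rose by 0.55 (edgeR, adjusted p = 0.010) and ATP5MC2 by 0.38 (edgeR, adjusted p = 0.016). ATF7 was the other gene called lower, at -0.36 (edgeR, adjusted p = 0.026). The call of CIR1 was lost without siControl replicate 2 and that of ATP5MC2 without siPSF replicate 2. The call of ATF7 was lost without siControl replicate 2, siControl replicate 3 or siPSF replicate 1. Of 17 other homeobox genes of the same class, edgeR called 0, with 2 at an unadjusted p under 0.05, and of 7 upstream regulators it called 0, with 1 at an unadjusted p under 0.05. From the list of named cluster lncRNAs outside the choice of members, which does not hold LOC100129455, HAGLR and HAGLROS were tested, and edgeR called 0, with 0 at an unadjusted p under 0.05. MIR10B, the only microRNA gene of its list in the table, had 1 to 4 reads per library and was not tested.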

How the data were processed

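The members and gene lists were chosen with earlier results of these data known. The authors prepared poly(A)-selected libraries as biological triplicates, removed rRNA reads, aligned the rest to hg38 (TopHat) and counted them over RefSeq genes, as the paper's methods say. The submitters' processing notes name Trimmomatic, HISAT2 2.1.0 and StringTie 2.1.3b instead. The deposited table holds raw counts and FPKM values, which the authors normalized to exon length and mapped reads. Whether strand was used in counting is not given in the sources used here.

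Genes were filtered with edgeR's filterByExpr (19694 of 21301 left), normalized by TMM and fitted in edgeR with the group as the only term over all 6 libraries, using the quasi-likelihood test. Benjamini-Hochberg adjustment covered all genes tested, and a gene was called at an adjusted p under 0.05. On data simulated for siPSF against siControl (19575 genes tested), the fit called 85.3% of the changed genes. Of its calls, 9.68% were false, a share above the threshold of 0.05. Fewer genes were changed in the simulation than were called in the real data. Whether these shares hold with more changed genes, or at the levels and fold changes of the HOX members, was not tested. Promoter windows and positions came from RefSeq (GRCh38.p14), and strands and shared exons from GENCODE, both on the build of the table. Levels are compared between genes only as FPKM. All members are named, as are genes of at least 1 CPM inside the clusters and the called genes of each list, up to the 3 with the smallest p; ASH1L, RXRA, ATF7, MEIS2 and the marker genes were named after their values were seen. Part of the list results is not reported here. Every library's value is given for called members, for the most abundant member and that with the smallest p of each cluster, and for lncRNA genes of at least 1 CPM, and other members' values were added after they were seen. Alternatives were DESeq2's size factors and Wald test, no filter, each library left out, a replicate block, and limma on log2(FPKM + 0.5) with a mean FPKM of at least 0.1, as deposited or rescaled to the same sum per library, and with a pseudocount of 0.1 or 1. The tools were edgeR 4.0.16, DESeq2 1.42.0 and limma 3.58.1 in R 4.3.3, and scipy 1.17.1 with pandas 2.3.3 in Python 3.11.15.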

Additional observations from a re-analysis of the deposited data

How the results depend on the processing

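The main count of members called was 2 higher and 0 lower. Left-out libraries gave 1 to 4 members higher and 0 to 1 lower, with 1 higher without siControl replicate 2, siControl replicate 3 or siPSF replicate 2, 4 higher without siPSF replicate 3, and 1 lower without siControl replicate 3 (HOXD-AS2) or siPSF replicate 3 (HOXD13). The replicate block gave 1 higher, limma on log2(FPKM + 0.5) gave 1 lower, and limma on rescaled FPKM gave 0 higher and 2 lower (HOXD13 and HOXD-AS2). HOTAIR was called in every count-based fit and could not be fitted by limma, since its mean FPKM was under 0.1. The median of the members, 0.20, was 0.10 (without siControl replicate 3) to 0.29 (without siControl replicate 1) with a library left out, 0.11 without siPSF replicate 1, 0.023, 0.047 and 0.014 with limma on log2(FPKM + 0.5), log2(FPKM + 0.1) and log2(FPKM + 1), and 1.0e-04 on rescaled FPKM. The median of all genes was -0.051 with limma on log2(FPKM + 0.5) and -0.14 on rescaled FPKM. These fits share libraries and are not independent of each other. The median of the members, which includes HOTAIR in the count-based fits, lay above the median of all genes in each of them. Single members did not all lie above it, such as HOXD-AS2 at -0.49 on rescaled FPKM. Over the lists of partners, regulators and neighbours of the HOX genes, 15 genes were called, and 29 with rescaled FPKM.

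Members near 0 changed sign in some fits, and the cause was not tested. With limma on log2(FPKM + 0.5) and then on rescaled FPKM, the values were -0.0017 and -0.11 for HOXC4, -0.065 and -0.17 for HOXC5, -0.033 and -0.13 for HOXD8, and -0.062 and -0.17 for HOXD3. With libraries left out, they ran from -0.0018 to 0.50 for HOXB9, -0.092 to 0.13 for HOXC5, -0.54 to 0.25 for HOXD11, -0.018 to 0.078 for HOXD8, -0.11 to 0.11 for HOXD4, -0.061 to 0.11 for HOXD3 and -0.14 to 0.65 for HOXD1. Between the groups, libraries with the same replicate number had correlations of deviations of -0.022, 0.056 and 0.056. Those with different numbers had -0.12 to 0.071. No pairing by number was seen, but such values cannot show that the libraries share nothing else. The replicate block gave 1 member called, HOTAIR. Few reads limit HOTAIR, which had 6 to 36 per library.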
